A study of Mus musculus with 6 samples.

Results

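The genes described here are 35 markers and regulators of blood and lymphatic endothelium, the cell layer that lines vessels, measured in whole mouse mammary tumours with and without enforced Bmp4 expression. They were 35 of the 20401 genes measured. Each was read from the probe set, among those with a unique gene symbol, that had the highest mean over all 6 arrays. Probe sets listed under the gene's own symbol, where there were any, were taken before those under another name. Rapgef3, Aplnr and Pcdh12 entered the list because their p-values were among the smallest of the genes lower in Bmp4 tumours. Their differences between the groups are therefore given as a description, with no test. All 35 genes had a probe set, and Aplnr, Esam and Ecscr were matched from older names through transcript accessions. Of the 35, 18 had no further probe set and 17 had 33 further ones between them.

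Each tumour grew from 4T1.2, a metastatic subline of the mouse mammary carcinoma 4T1. For this, 100000 cells were injected into the mammary fat pad (4th inguinal) of female Balb/c mice aged 6 to 8 weeks, and the tumours were taken at about 0.3 g. In 3 control tumours the cells carried pBabepuro, an empty retroviral vector with puromycin resistance, and in 3 Bmp4 tumours they carried pBabepuro with murine Bmp4. Both groups thus shared the vector and the line, the vector was in the inoculated cells, and the vessels were those of the host. The labels give neither the number of clones in each transduced line nor whether separate mice bore the tumours, so the p-values below measure only the spread between these samples.

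Endothelial cells are joined by VE-cadherin and claudin junctions, respond to VEGF, angiopoietin, apelin and adrenomedullin through surface receptors, and take their identity from ETS, SOX and TAL1 transcription factors. Lymphatic endothelium is set apart by PROX1, LYVE1 and VEGFR3. BMP ligands reach endothelial cells through type I and type II receptors with endoglin as a co-receptor, and induce the ID proteins and the inhibitory SMAD6.

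The values were deposited log2 RMA levels of 1 array per tumour. Levels are compared for a given probe set between arrays and never between probe sets. The array of control tumour 1 stood apart: over the 35 genes its correlation with another array was r = 0.476 to 0.601, and among the remaining 5 arrays r was 0.891 to 0.980. Its interquartile range over all probe sets was 2.25, against 3.36 and 3.64 in control tumours 2 and 3 and 3.67 to 3.77 in the Bmp4 tumours. By this range every Bmp4 tumour was above every control tumour. Every comparison is therefore given with all 6 arrays and without control tumour 1, which leaves 2 control tumours against 3. Of 3 further array measures, 2 separated the groups themselves with 6 arrays. The 3' minus 5' difference of the Actb probe sets, which grows with RNA degradation, was 2.62 to 5.64 in the controls, and in the Bmp4 tumours 1.44 to 2.33. Spiked hybridization controls averaged 10.42 to 12.84 and 9.79 to 10.09. The 3' minus 5' difference of Gapdh was 2.46 to 5.31 in the controls, against 1.62 to 3.13, where control tumour 1, the lowest control, lay within the Bmp4 range. Without control tumour 1 the Gapdh measure separated the groups too, at 3.93 and 5.31 against 1.62 to 3.13. The part of these measures in any difference below was not tested. With or without control tumour 1, the interquartile range and the Actb and hybridization measures cannot be told apart from the groups. Without control tumour 1 the same holds for the Gapdh measure. Bmp4 itself, read by its only probe set, was at 6.48, 5.93 and 4.99 in the controls, numbered 1 to 3, and at 5.04, 4.94 and 5.51 in the Bmp4 tumours. It was not higher in the latter. The sources used here do not say whether that probe set lies in the inserted Bmp4, so the groups keep their labelled names.

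On each of the 5 arrays other than control tumour 1, none of the 35 genes was below the array's 25th percentile. On those 5 arrays the percentile of Cdh5 was 62.2 or higher, that of Kdr 74.2 to 87.0, that of Tie1 51.9 to 66.8 and that of Pecam1 46.6 to 59.8. These positions differ with the probe set as well as with the RNA and rank no gene against another. Prox1, a defining lymphatic gene, was at the 29.6 to 43.8 percentile, Lyve1 at 43.1 to 49.1 and Flt4 at 46.2 to 53.8. On control tumour 1, Tie1, Vwf, Sox17, Calcrl and Cd34 were below the 25th percentile, between 10.8 for Vwf and 21.5 for Calcrl. That array held the lowest of the 6 values for 20 genes and the highest for 6, Flt4, Erg, Clec14a, Tal1, Lyve1 and Prox1. Over all 20401 genes it held the lowest value for 7804 and the highest for 9726.

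Promoter windows were available for 17 of the 35 genes, 23 windows in all, from RefSeq on build GRCm38.p6, and the 250 bases upstream of each start were searched. ETS factors such as ERG bind a core that can be spelled AGGAAG. On either strand these letters were in 11 of the 23 windows, 47.8%, and in 29.5% of all 32851 windows. They were in at least 1 window of 10 genes: Cd34, Egfl7, Eng, Calcrl, Emcn, Tie1, Flt1, Robo4, Rapgef3 and Erg. The 4 windows below hold the letters and belong to genes on both sides of the comparison that follows. Rapgef3 and Egfl7 had lower and Eng and Calcrl higher means in Bmp4 tumours when control tumour 1 is left out. The windows of Kdr and Cldn5, which were also lower there, held 0 matches and are not shown. Capitals mark AGGAAG or its reverse complement CTTCCT, and each sequence is written on the strand of its gene, 5′ to 3′. The Rapgef3 window, chr15:97767667-97767916 on the minus strand, lies within the annotated span of the gene, upstream of an internal start. The Egfl7 window shown is chr2:26580833-26581082 on the plus strand, the Eng window chr2:32646345-32646594 on the plus strand, and the Calcrl window chr2:84425267-84425516 on the minus strand. The Egfl7 window shown has 3 matches, and the other windows of Egfl7, not shown, have 1 and 0.
Rapgef3: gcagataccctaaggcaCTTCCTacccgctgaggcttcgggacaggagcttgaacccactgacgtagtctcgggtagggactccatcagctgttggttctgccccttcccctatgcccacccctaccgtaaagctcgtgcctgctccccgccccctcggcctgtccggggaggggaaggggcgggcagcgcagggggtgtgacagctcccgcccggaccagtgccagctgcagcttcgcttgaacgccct
Egfl7: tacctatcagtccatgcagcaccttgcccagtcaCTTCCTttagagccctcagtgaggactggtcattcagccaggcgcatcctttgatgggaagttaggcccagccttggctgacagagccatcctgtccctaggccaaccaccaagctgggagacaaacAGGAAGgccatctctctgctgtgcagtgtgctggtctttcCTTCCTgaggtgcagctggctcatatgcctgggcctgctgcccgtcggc
Eng: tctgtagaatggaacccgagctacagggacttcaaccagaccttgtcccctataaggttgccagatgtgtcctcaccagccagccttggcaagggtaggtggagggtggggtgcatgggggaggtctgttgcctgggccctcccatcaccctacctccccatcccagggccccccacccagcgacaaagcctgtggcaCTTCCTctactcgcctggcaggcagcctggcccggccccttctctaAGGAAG
Calcrl: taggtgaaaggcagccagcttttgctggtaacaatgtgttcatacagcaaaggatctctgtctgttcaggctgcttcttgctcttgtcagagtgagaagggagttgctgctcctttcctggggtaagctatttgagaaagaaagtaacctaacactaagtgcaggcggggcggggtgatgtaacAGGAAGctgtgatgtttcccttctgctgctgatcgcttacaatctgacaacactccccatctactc
The other motifs searched, on both strands and spelled differently from AGGAAG, were AACAAT for SOX factors, AGATAA for GATA factors and GGCGCC for BMP-activated SMADs. AACAAT was in 4 of the 23 windows, 17.4% against 9.42% of all windows, in Calcrl, Emcn, Tek and Erg. AGATAA was in 2 windows, 8.7% against 9.99%, in Tal1 and Erg. GGCGCC was in 2 windows, 8.7% against 9.59%, both of Prox1. These matches describe letters in the windows and are not evidence of binding.

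The series compared the expression profile of whole tumours with and without enforced Bmp4, and for these genes the comparison asks how their RNA differs between the groups. Most of the 35 genes had lower means in the Bmp4 tumours once control tumour 1 was left out, and none passed the test over all genes. With 6 arrays, 22 genes had a difference below 0 and 13 above, with a median log2 difference, Bmp4 minus control, of -0.11 and a range of -1.89 to 1.41. Over all genes 55.5% of differences were below 0 and the median was -0.12. Dim and bright genes differed in this, since among the 10200 genes above the median of mean signal 2550 were below 0 and the median was 0.57. Above the 50th percentile of all probe sets, where 28 of the 35 remained, the median of the 28 was -0.06 and that of all genes 0.44. Without control tumour 1, 29 genes were below 0 and 6 above, with a median of -0.43 and a range of -2.32 to 0.48, while 55.7% of all genes were below 0 with a median of -0.04, and 40.9% of the brighter genes with a median of 0.10. The 6 genes above 0 were Calcrl, Icam2, Eng, Prox1, Pecam1 and Emcn. With 6 arrays the direction depended on single arrays and on scaling: leaving out control tumour 2 gave 15 genes below and 20 above 0 with a median of 0.07, and centring each array on its median gave 17 and 18 with a median of 0.07, the same as the median of all genes there. Without control tumour 1, 28 to 30 of the 35 genes were below 0 under every scaling tried, with medians of -0.36 to -0.54. In bulk tumours, fewer endothelial cells, less RNA of these genes per cell and a change in their RNA from other cells cannot be told apart. Nor can these be told apart from the array measures above that separated the groups.

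**Figure D1:**
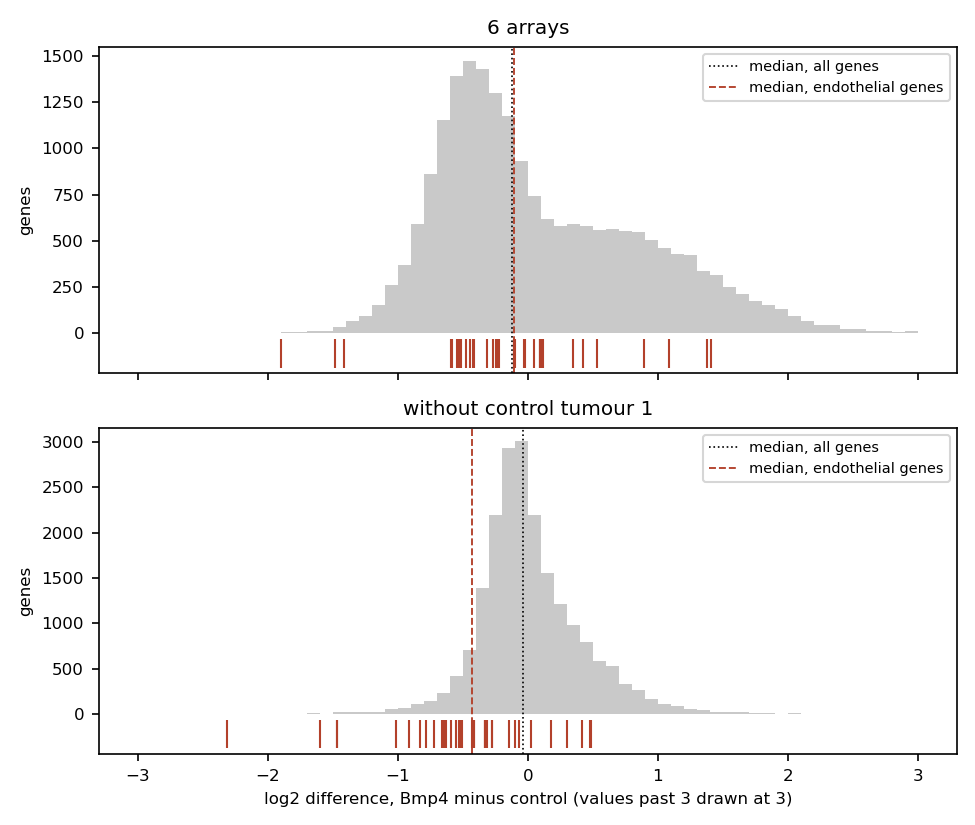
Histograms of the log2 difference, Bmp4 minus control, of all 20401 genes (x axis, in bins of 0.1; y axis, number of genes) with 6 arrays above and without control tumour 1 below; red ticks are the 35 endothelial genes, and the lines are the medians. With 6 arrays the median of the endothelial genes (-0.11) lies beside that of all genes (-0.12), dim ones included, and without control tumour 1 it lies at -0.43 against -0.04.

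No gene of the 35 passed limma's adjusted p under 0.05 in either setting, and among all genes 0.0% passed with 6 arrays and 0.0196% (4 genes, all higher in Bmp4 tumours) without control tumour 1. Among the 32 genes that were not chosen from this contrast, the smallest limma adjusted p with 6 arrays was 0.496, and it was 0.213 without control tumour 1. At an unadjusted p under 0.05 and lower in Bmp4 tumours, the count was 3 of 35 with 6 arrays, which are the 3 genes chosen on that ground, beside 1.17% of all genes. Without control tumour 1 the count was 17 of 35, or 14 of the other 32, beside 5.66% of all genes. For any 1 gene, exact permutation of 3 tumours against 3 has a smallest two-sided p of 0.1.

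Every Bmp4 tumour was below every control tumour in 9 genes with 6 arrays: Cdh5, Flt4, Pcdh12, Aplnr, Rapgef3, Erg, Ramp2, Clec14a and Tal1. No gene had every Bmp4 tumour above. Of all genes, 13.6% separated downward and 12.9% upward. Without control tumour 1, 23 of the 35 genes separated downward and 0 upward, beside 18.3% and 15.9% of all genes. Nothing about the list is read from these shares, since 3 members were taken from the same contrast and the others were chosen with its results known. Leaving out control tumours 1 and 2 together kept the counts below and above 0 at 29 and 6, with a median of -0.42 against control tumour 3 alone.

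**Figure D2:**
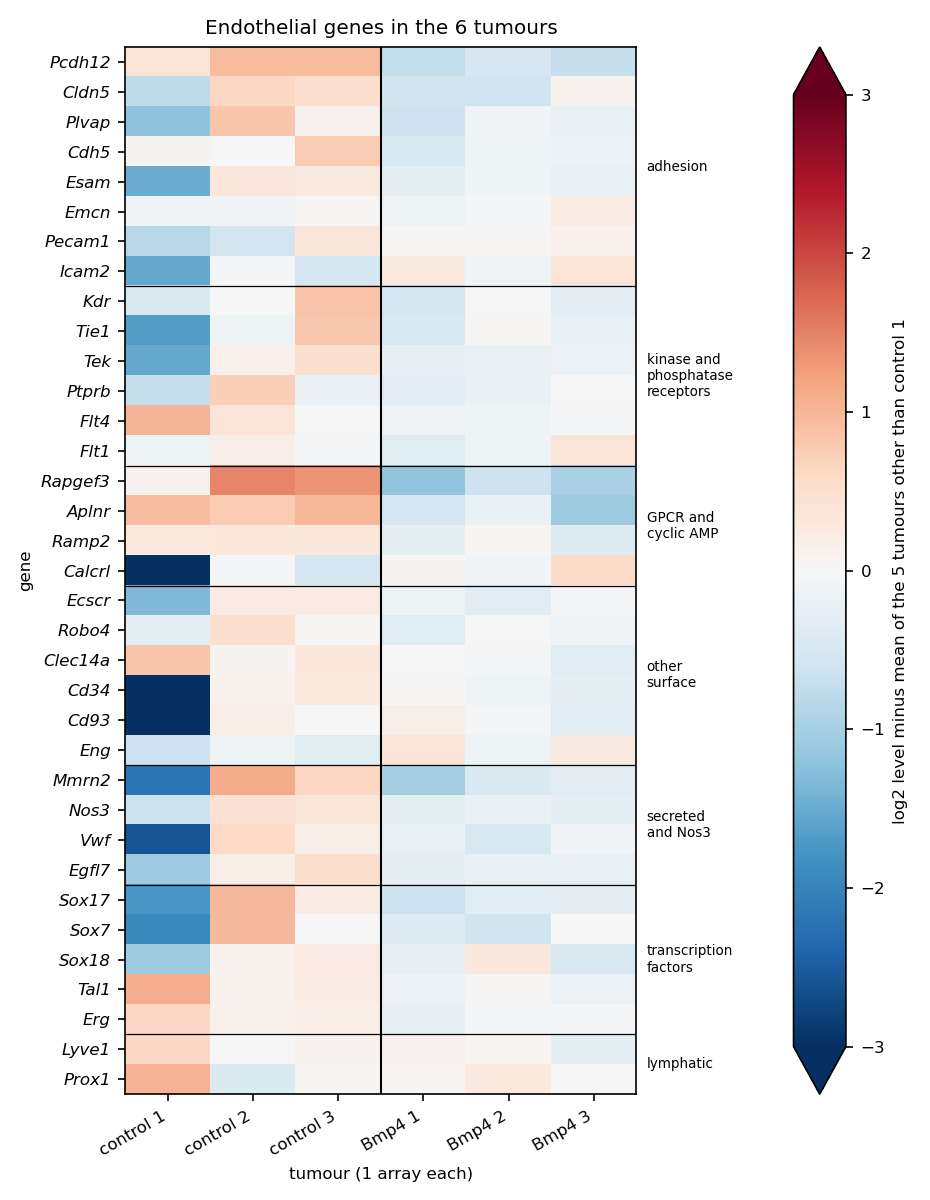
Heat map of the 35 endothelial genes (rows, by role) in the 6 tumours (columns); colour is the log2 level minus the mean of the 5 arrays other than control tumour 1, and values beyond 3 are drawn at the end of the scale. Control tumours 2 and 3 are mostly red and the Bmp4 tumours mostly blue, while control tumour 1 holds the lowest value of 20 genes.

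Of the 4 genes of G protein-coupled and cyclic AMP signalling, 2 were chosen from this contrast, Rapgef3 and Aplnr. Rapgef3 encodes EPAC1, an exchange factor that cyclic AMP activates and that loads RAP1 to tighten endothelial junctions. Its levels in control tumours 1, 2 and 3 were 10.14, 11.47 and 11.33, and those in Bmp4 tumours 1, 2 and 3 were 8.82, 9.39 and 9.05. All 3 Bmp4 tumours lay below all 3 control tumours, by -1.89 ± 0.42 (SE) with 6 arrays and by -2.32 ± 0.20 without control tumour 1. The latter is a 4.98-fold higher geometric mean in control tumours, and in the authors' deposited table the ratio of Bmp4 over control is 0.201. Aplnr, the receptor of apelin, was at 9.97, 9.80 and 10.04 in control tumours and at 8.53, 8.85 and 7.98 in Bmp4 tumours. The groups were apart, and the difference barely moved with control tumour 1, from -1.48 ± 0.31 to -1.47 ± 0.27 without it. In the authors' deposited table its ratio is 0.416.

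Adrenomedullin signals through a receptor made of CALCRL and its partner RAMP2, and the differences of these genes had opposite signs. Ramp2 was at 7.42, 7.45 and 7.44 in control tumours and at 6.83, 7.18 and 6.75 in Bmp4 tumours. The control values were nearly equal and all above the Bmp4 values, and the difference was -0.51 ± 0.25 with 6 arrays and -0.52 ± 0.18 without control tumour 1. Calcrl was at 4.86, 7.79 and 7.31 in control tumours and at 7.93, 7.76 and 8.41 in Bmp4 tumours. Its low value on control tumour 1 set the difference of 1.38 ± 0.77, which was 0.48 ± 0.25 without that array, where control tumour 2 and Bmp4 tumour 2 overlapped. The 2 further Calcrl probe sets, both dim, differed by -0.10 and 0.01 without control tumour 1. Adm, the adrenomedullin ligand, was at 10.70, 10.77 and 11.61 in control tumours and 9.68, 10.06 and 10.82 in Bmp4 tumours, and the groups overlapped. Apln, the apelin ligand, differed by -0.25 with 6 arrays and by -0.32 without control tumour 1.

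The genes of cell junctions and adhesion did not share a direction. Pcdh12, a protocadherin also called VE-cadherin-2, was at 7.38, 7.93 and 7.93 in control tumours and at 6.24, 6.47 and 6.28 in Bmp4 tumours. The gap between the groups was wider than the range within either, and the difference was -1.42 ± 0.27 with 6 arrays and -1.60 ± 0.14 without control tumour 1. Cldn5, the main tight junction claudin of endothelium, was at 7.71, 9.08 and 8.95 in control tumours and at 7.86, 7.88 and 8.56 in Bmp4 tumours. Its groups overlapped through control tumour 1 and separated without it, with differences of -0.48 ± 0.45 and -0.91 ± 0.24. Cdh5, which encodes VE-cadherin, was at 7.26, 7.18 and 7.93 in control tumours and at 6.73, 7.05 and 6.99 in Bmp4 tumours. The groups were apart by a narrow margin, 7.05 against 7.18, with differences of -0.53 ± 0.30 and -0.63 ± 0.25.

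Plvap, the protein of the diaphragms of fenestrae and caveolae, was at 8.32, 10.36 and 9.66 in control tumours and at 8.92, 9.43 and 9.31 in Bmp4 tumours. Control tumours 2 and 3 were above all Bmp4 tumours and control tumour 1 was below them, and the difference was -0.22 ± 0.54 with 6 arrays and -0.79 ± 0.26 without control tumour 1. Esam, an immunoglobulin-type junction molecule, followed the same order, with 0.09 ± 0.53 and then -0.51 ± 0.14. Icam2, a ligand of leukocyte integrins, was at 6.63, 8.11 and 7.64 in control tumours and at 8.45, 8.05 and 8.56 in Bmp4 tumours. Its mean was higher in Bmp4 tumours in both settings, by 0.89 ± 0.43 and 0.48 ± 0.22, though control tumour 2 overlapped Bmp4 tumour 2. Pecam1, or CD31, which is also on platelets and leukocytes, differed by 0.42 ± 0.36 and 0.18 ± 0.27, and by -0.28 against control tumour 3 alone. Emcn, a sialomucin of capillaries and veins, differed by 0.05 ± 0.24 and 0.03 ± 0.17. Of the 8 adhesion genes, 5 were below 0 and 5 separated downward without control tumour 1, beside 55.7% and 18.3% of all genes.

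The tyrosine kinase and phosphatase receptors were all 6 below 0 without control tumour 1, and 4 of 6 with it. Kdr, the main signalling receptor of VEGF, was at 7.97, 8.45 and 9.28 in control tumours and at 7.92, 8.44 and 8.09 in Bmp4 tumours. Control tumour 3 alone stood above the rest, and the difference was -0.42 ± 0.40 with 6 arrays and -0.72 ± 0.28 without control tumour 1. Tie1, an orphan partner of the angiopoietin receptor, differed by 0.12 ± 0.63 and -0.55 ± 0.30, with control tumour 2 (6.19) inside the range of the Bmp4 tumours (5.88 to 6.37). Tek, the angiopoietin receptor TIE2, was at 5.18, 6.87 and 7.20 in control tumours and at 6.48, 6.49 and 6.55 in Bmp4 tumours. The Bmp4 tumours were close to each other and below control tumours 2 and 3, and the difference turned from 0.09 ± 0.54 to -0.53 ± 0.16 without control tumour 1. Ptprb, the phosphatase VE-PTP that restrains TIE2, differed by -0.10 ± 0.41 and -0.43 ± 0.28. A brighter Ptprb probe set, listed under another name, differed by -0.06 and -0.59, and its groups separated downward without control tumour 1. Flt1, the VEGF receptor that mostly acts as a trap for ligand, differed by -0.03 ± 0.30 and -0.10 ± 0.24. Flt4, or VEGFR3, the receptor of VEGF-C, had its highest value on control tumour 1 (6.71) and differed by -0.59 ± 0.33 and -0.31 ± 0.17.

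**Figure D3:**
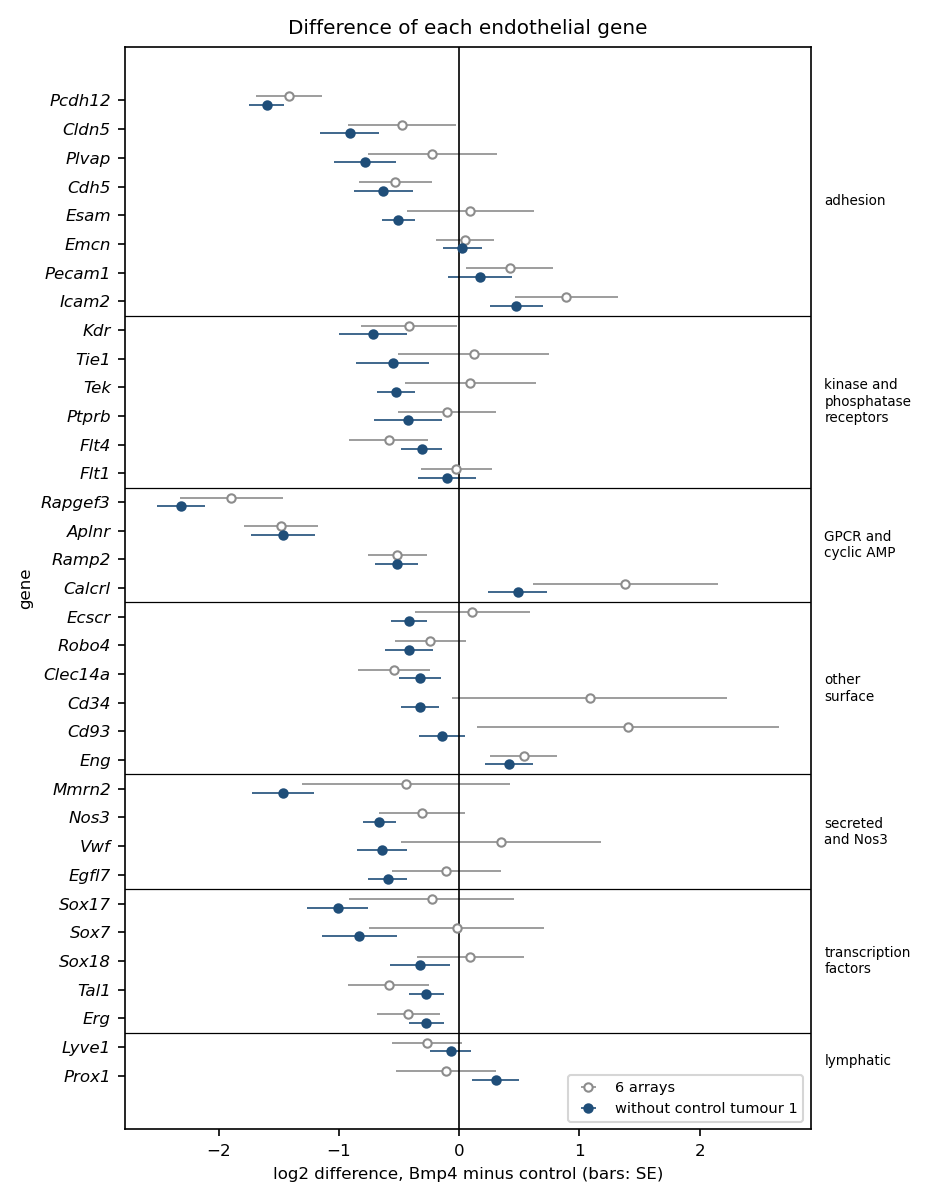
Log2 difference, Bmp4 minus control (x axis), of each endothelial gene (y axis, by role), with bars of 1 SE from limma; open circles are the fit of 6 arrays and filled circles the fit without control tumour 1. Rapgef3, Aplnr and Pcdh12, chosen from this contrast, lie at -1.42 or lower in both, and Calcrl, Icam2 and Eng lie above 0 in both.

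Of the 6 other surface glycoproteins and co-receptors, 2 were below 0 with 6 arrays and 5 without control tumour 1. Eng, endoglin, the co-receptor of BMP9 and TGF-beta on endothelium, was at 9.12, 9.61 and 9.36 in control tumours and at 10.11, 9.59 and 9.99 in Bmp4 tumours. Bmp4 tumours 1 and 3 were above all controls and Bmp4 tumour 2 was just below control tumour 2, and the difference was 0.53 ± 0.28 and 0.41 ± 0.20 without control tumour 1. Cd34, a sialomucin shared by endothelium and progenitor cells, was at 4.34 on control tumour 1, between 8.48 and 8.68 in control tumours 2 and 3, and between 8.12 and 8.41 in Bmp4 tumours. That 1 array turned its difference from -0.33 ± 0.16 to 1.09 ± 1.15. Robo4, a guidance receptor that steadies vessels, differed by -0.24 ± 0.29 and -0.42 ± 0.20, and Ecscr, a regulator of endothelial migration, by 0.11 ± 0.48 and -0.42 ± 0.15.

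Mmrn2, a matrix protein that endothelial cells secrete, and Cd93 and Clec14a, lectin-like surface proteins that bind it, did not differ by the same amount. Mmrn2 was at 6.91, 10.22 and 9.73 in control tumours and at 8.11, 8.64 and 8.79 in Bmp4 tumours. Control tumours 2 and 3 were above every Bmp4 tumour and control tumour 1 below, and the difference of -0.44 ± 0.87 became -1.46 ± 0.26 without control tumour 1, a 2.76-fold higher level in controls. It had the largest difference in that setting among the genes that were not chosen from the contrast, and its ratio in the authors' deposited table is 0.349. Cd93 was at 5.94, 10.66 and 10.50 in control tumours and at 10.68, 10.47 and 10.16 in Bmp4 tumours. It overlapped between the groups, at -0.14 ± 0.19 without control tumour 1 and 1.41 ± 1.26 with it. Clec14a was at 6.67, 5.90 and 6.15 in control tumours and at 5.83, 5.78 and 5.48 in Bmp4 tumours, narrowly apart, with differences of -0.55 ± 0.30 and -0.33 ± 0.17.

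The other secreted proteins and endothelial nitric oxide synthase were lower in every Bmp4 tumour than in control tumours 2 and 3. Nos3, which makes nitric oxide in endothelium, was at 6.04, 7.12 and 7.07 in control tumours and at 6.4, 6.49 and 6.4 in Bmp4 tumours. The Bmp4 values lay together between control tumour 1 and the other controls, with differences of -0.31 ± 0.36 and -0.66 ± 0.14. Vwf, the clotting factor carrier that is also in platelets, was at 4.21, 7.41 and 6.97 in control tumours and at 6.59, 6.31 and 6.73 in Bmp4 tumours. Its difference turned from 0.35 ± 0.83 to -0.64 ± 0.20 when control tumour 1 was left out. Egfl7, a secreted factor of vessel tube formation, was at 7.12, 8.39 and 8.75 in control tumours and at 7.95, 7.99 and 8.00 in Bmp4 tumours. The Bmp4 tumours were close to each other and below control tumours 2 and 3, and the difference was -0.11 ± 0.45 and -0.59 ± 0.16.

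All 5 transcription factors were below 0 without control tumour 1 and 4 of 5 with 6 arrays. Sox17, which specifies arterial endothelium, was at 4.35, 7.06 and 6.32 in control tumours and at 5.45, 5.78 and 5.82 in Bmp4 tumours. Sox7, of the same SOXF group, was at 5.97, 8.88 and 7.91 in control tumours and at 7.51, 7.31 and 7.88 in Bmp4 tumours. In both, control tumours 2 and 3 were above and control tumour 1 below all Bmp4 tumours, and the differences were -0.23 ± 0.69 and -1.01 ± 0.25 for Sox17 and -0.02 ± 0.73 and -0.83 ± 0.31 for Sox7. Sox18, the SOXF factor of early lymphatic specification, overlapped between the groups in both settings, at 0.09 ± 0.45 and -0.33 ± 0.25. Erg, an ETS factor that maintains endothelial identity, was at 6.41, 5.93 and 5.99 in control tumours and at 5.55, 5.74 and 5.76 in Bmp4 tumours. The groups were apart, with differences of -0.42 ± 0.26 and -0.27 ± 0.14. Tal1, a factor of blood and vessel precursors that red cell precursors also express, differed by -0.58 ± 0.34 and -0.27 ± 0.15, also with the groups apart.

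The lymphatic genes Lyve1 and Prox1 were both below 0 with 6 arrays and had opposite signs without control tumour 1. Lyve1, a hyaluronan receptor of lymphatic endothelium that some macrophages carry, was at 6.18, 5.53 and 5.65 in control tumours and at 5.68, 5.61 and 5.28 in Bmp4 tumours. Prox1, the master factor of lymphatic fate, was at 6.13, 4.68 and 5.13 in control tumours and at 5.15, 5.39 and 5.08 in Bmp4 tumours. Both overlapped between the groups, with differences of -0.27 ± 0.29 and -0.07 ± 0.17 for Lyve1 and of -0.11 ± 0.42 and 0.30 ± 0.19 for Prox1. Of 10 further lymphatic genes measured, 4 were below 0 with 6 arrays and 7 without control tumour 1, and 0 passed the test. Pdpn, podoplanin, which fibroblasts and tumour cells also make, was at 8.75, 9.02 and 7.80 in control tumours and at 7.38, 7.67 and 7.79 in Bmp4 tumours.

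The further probe sets were mostly of the same sign as the chosen ones. Of 33, 28 were below 0 with 6 arrays and 25 without control tumour 1, and 24 and 27 had the sign of the probe set chosen for the gene. Among the 23 that were at or above the 25th percentile on every array, 18 and 20 had that sign. Every Bmp4 tumour was below every control tumour in 12 of the 33 with 6 arrays and in 16 without control tumour 1. Apart from Rapgef3, Aplnr and Pcdh12, 7 and 10 of 26 separated so, and 21 and 18 were below 0. Over all genes, each read from 1 probe set, 13.6% and 18.3% separated downward and 55.5% and 55.7% were below 0. Shares over all probe sets were not computed. None of the 33 passed limma's adjusted p under 0.05 over all probe sets in either setting. All 5 Rapgef3 probe sets were lower in Bmp4 tumours, the further ones by -0.46 to -1.55 with 6 arrays and by -0.95 to -1.99 without control tumour 1. The 3 further Mmrn2 probe sets differed by -0.46 to -0.74 and by -0.61 to -0.84, less than the -1.46 of the chosen one without control tumour 1. The 3 further Egfl7 probe sets differed by -0.22 to -0.94 and by -0.31 to -0.51, and the second Aplnr probe set by -0.54 and -0.42. Of the further Pcdh12 probe sets, 1 overlapped between the groups, at -0.36 and -0.11, and the other, below the 25th percentile on 5 arrays, was lower in every Bmp4 tumour and differed by -0.48 without control tumour 1, against -1.60 for the chosen one. The sign was unlike that of the chosen probe set in 9 with 6 arrays and in 6 without control tumour 1. Disagreement was seen in Lyve1, whose second probe set differed by 0.69 and 0.59. In Cd93, 1 probe set was higher in every Bmp4 tumour without control tumour 1, by 0.18. A further Eng probe set differed by 0.38 and 0.11, and another by -0.39 and 0.10. The second Erg probe set differed by 0.09 and -0.36 and overlapped with 6 arrays. Without control tumour 1 the further Flt1 probe sets differed by -0.58 and 0.29. The second Sox17 probe set differed by 0.11 and 0.03, against -1.01 for the chosen one without control tumour 1.

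**Figure D4:**
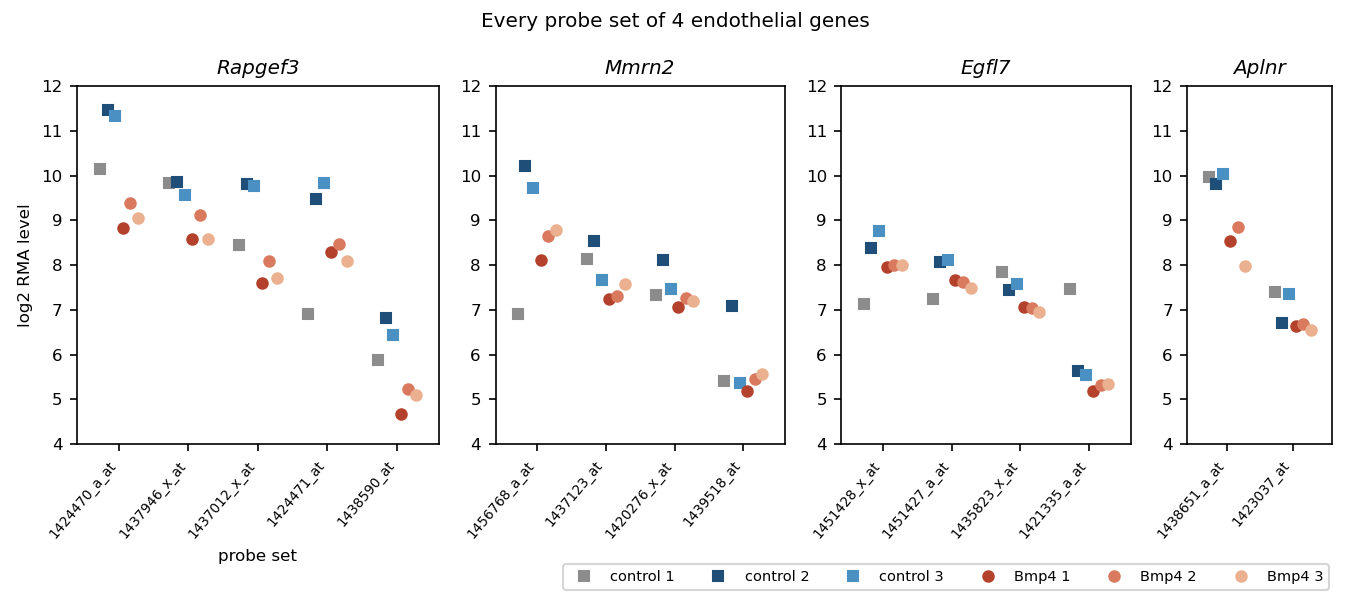
Log2 RMA level (y axis) of every probe set (x axis) of Rapgef3, Mmrn2, Egfl7 and Aplnr in the 6 tumours; squares are control tumours, with control tumour 1 in grey, and circles are Bmp4 tumours. In Rapgef3 the Bmp4 tumours lie below control tumours 2 and 3 at all 5 probe sets, and control tumour 1 lies below them at the probe set with a difference of -0.46.

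Other endothelial genes, from a list of 45 of which 42 were measured, did not show the same balance. With 6 arrays 21 were below 0 and 21 above, with a median of 0.00, and without control tumour 1, 27 were below 0 and 15 above, with a median of -0.10. In the latter setting 14 of the 42 separated downward and 6 upward, beside 18.3% and 15.9% of all genes. In neither setting did any pass the test. The mean log2 level over that list was 7.95 and 7.88 in control tumours 2 and 3 and 7.82 to 7.88 in Bmp4 tumours, whereas over the 35 genes it was 7.79 and 7.76 and then 7.20 to 7.32. Without Rapgef3, Aplnr and Pcdh12 the latter means were 7.61 and 7.57 and then 7.14 to 7.27. On control tumour 1 the mean was 6.99 for the other endothelial genes and 6.66 for the 35 genes. It was 6.43 without Rapgef3, Aplnr and Pcdh12. Each of these was below every Bmp4 tumour. Selp, the P-selectin that activated endothelium and platelets display to leukocytes, was at 7.49, 8.44 and 6.58 in control tumours and at 9.55, 9.40 and 10.16 in Bmp4 tumours, a difference of 2.20 ± 0.52 with 6 arrays and 2.19 ± 0.53 without control tumour 1, with limma adjusted p-values of 0.496 and 0.243. Its sign was opposite to that of most of the 35 genes. Shank3, a scaffold protein, differed by -0.76 and -0.66, and Fgd5, an exchange factor of endothelium, by -0.93 and -0.58. Tinagl1 differed by 1.48 and 0.89, and its groups overlapped in both settings.

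Of 18 measured ligands and co-receptors of the VEGF, angiopoietin, apelin and adrenomedullin systems, 8 were below 0 with 6 arrays and 13 without control tumour 1, with medians of 0.07 and -0.32, and 0 passed. Among 16 measured cyclic AMP and RAP1 genes, the relatives of Rapgef3 were mixed: Rapgef6 differed by 1.40 and 0.65 and Rapgef2 by 1.63 and 0.48, and Rapgef5 by -0.49 and -0.51. Of 13 Notch and ephrin genes, 7 and then 9 were below 0. Notch4, a Notch receptor of endothelium, was at 5.16, 7.74 and 7.47 in control tumours and at 6.52, 6.79 and 6.24 in Bmp4 tumours. Control tumour 1 was below all Bmp4 tumours. The Notch4 difference was -0.27 with 6 arrays and -1.09 without control tumour 1. Of the BMP9 and TGF-beta receptor and target genes, 10 of 11 were above 0 with 6 arrays, with a median of 1.37. Without control tumour 1 it was 8 of 11, with a median of 0.26. Among the 10200 genes above the median of mean signal, 7650 and then 6030 were above 0, with medians of 0.57 and 0.10. Smad6, an inhibitory SMAD, was at 5.08, 5.78 and 5.91 in control tumours and at 8.36, 7.47 and 8.29 in Bmp4 tumours (2.45 ± 0.38 and 2.19 ± 0.28, limma adjusted p = 0.496 and 0.135).

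Markers of other cells were compared between the groups as well. All 12 leukocyte and macrophage markers were above 0 in both settings, with a median of 1.01 and of 0.91 without control tumour 1, and their mean level was 7.6 to 9.52 in the controls, against 9.40 to 10.16 in Bmp4 tumours. Against control tumour 3 alone 10 of the 12 were above 0 and the median was 0.24. The 15 mural cell markers, of pericytes and smooth muscle, were at a mean of 7.43 and 7.35 in control tumours 2 and 3 and 7.16 to 7.20 in Bmp4 tumours. On control tumour 1 their mean was 6.84, below every Bmp4 tumour. Without control tumour 1, 10 of 15 were below 0, among them Pdgfrb by -0.89 and Rgs5 by -0.91. The other 5 were above 0, among them Mcam by 0.77, Tagln by 0.59 and Myh11 by 0.47. Tagln and Myh11 were higher in every Bmp4 tumour than in control tumours 2 and 3. With 6 arrays Pdgfrb and Rgs5 differed by -0.06 and 0.12, and Mcam, Tagln and Myh11 by 1.75, 0.73 and 0.25. The 8 platelet and erythroid markers were at 6.84 to 7.05 in control and 6.6 to 6.8 in Bmp4 tumours, the 14 fibroblast markers at 7.89 to 10.07 and 9.63 to 10.00, the 9 adipocyte markers at 5.54 to 6.27 and 5.56 to 5.63, and the 12 epithelial markers at 7.42 to 7.44 and 7.15 to 7.24. No marker was at 0, since RMA levels have no zero, and none of these genes passed the test. Their part in the differences of the endothelial genes was not tested.

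**Figure D5:**
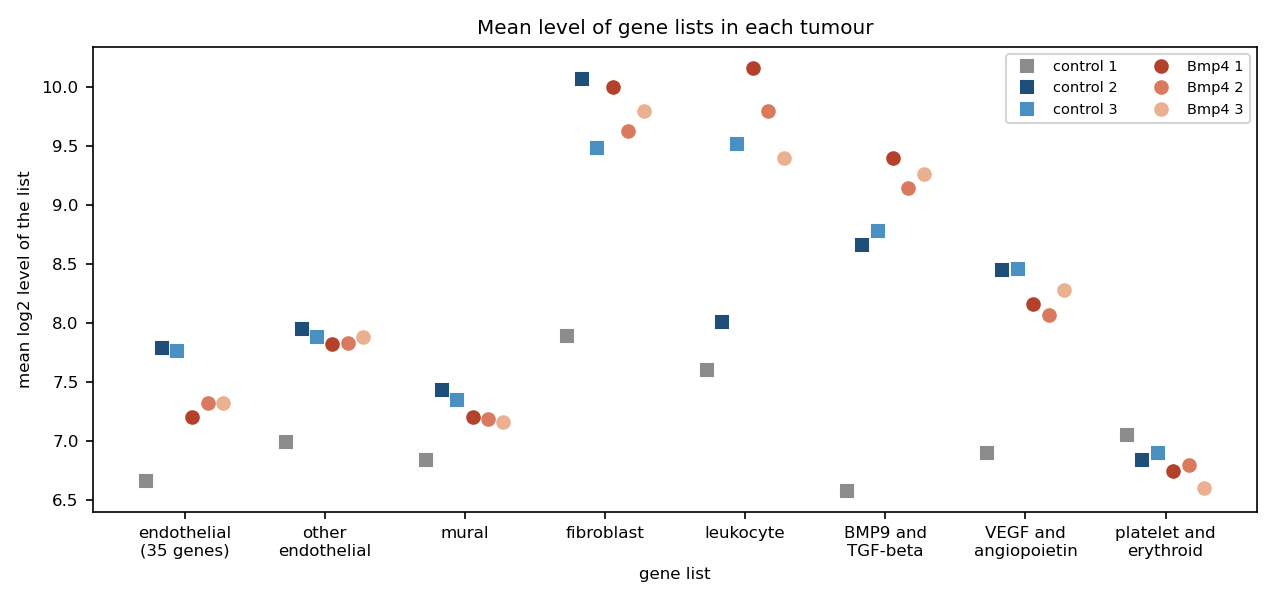
Mean log2 RMA level (y axis) of the 35 endothelial genes and of 7 other gene lists (x axis) in each tumour; squares are control tumours, with control tumour 1 in grey, and circles are Bmp4 tumours. The 35 genes lie at 6.66 in control tumour 1, at 7.79 and 7.76 in control tumours 2 and 3, and at 7.20 to 7.32 in Bmp4 tumours. The leukocyte list is highest in Bmp4 tumour 1, at 10.16.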

How the data were processed

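RMA and Partek 6.6 are named in the submitters' processing notes, and the authors deposited 1 log2 level per probe set and array. The arrays normalized together and the annotation are not given in the sources used here. Gene symbols were read from the results of an analysis of variance that the authors also deposited. Per the file headers, that table holds the Bmp4 over control ratio of a probe set with raw and adjusted p-values, and of these only the ratio is printed. Of 45101 probe sets, 36859 had a unique symbol. These gave 20401 genes after symbols were updated through RefSeq (GRCm38.p6), with dim probe sets kept. Groups and tumour numbers came from the labels.

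Genes were tested with limma 3.58.1 in R 4.3.3 (lmFit, then eBayes, for 2 groups). P-values were two-sided and were adjusted by the Benjamini-Hochberg method over all 20401 genes, at a threshold of 0.05. Errors are limma's SE. The fit was tested on simulated data with known changes. Exclusion of control tumour 1 follows an earlier account of these arrays. The members, the gene lists and the tests were chosen with earlier results of these data known. All members are described, and of each further list up to 4 genes with the smallest p over 6 arrays were to be named. Not all of these are named above. Those left out include Col1a1, Lyz2, Id1, Bmpr1a, Tgfbr2, Prkacb and Radil. Apln, Notch4, Pdgfrb, Rgs5, Myh11 and Rapgef2 were named outside that rule after their values were seen. Probe sets named under Rapgef3, Mmrn2, Egfl7 and Aplnr in the plot are those of the array's design. The number of arrays limits the precision. No arrays held the same values: any pair shared at most 114 of 45101. Tumours with the same number did not deviate together (correlations of -0.14, -0.249 and -0.037), so numbers were not treated as pairs.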

Additional observations from a re-analysis of the deposited data

How the results depend on the processing

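The position of the 35 genes against all genes depended on control tumour 1 and on which genes they were set against. With 6 arrays their median was -0.11 against -0.12 over all genes, -0.18 against -0.05 after quantile normalization, and -0.06 against 0.44 above the 50th percentile of signal. No setting other than those named here called any of the 35. The median difference was -0.11 with 6 arrays and -0.43 to 0.07 when 1 tumour was left out in turn. These omissions called 0 to 4 genes, 0 to 0 of the 35. They left 9 to 23 of the 35 with every Bmp4 tumour below every control tumour, beside 17.3% to 31.3% of all genes. The 31.3% was without control tumour 3, where 9 of the 35 separated. Of the 33 further probe sets, 23 to 28 were below 0. The number of genes separated downward, 9 with 6 arrays, was 5 after centring on the array median, 25 without control tumours 1 and 2, and 20 without control tumour 1 after quantile normalization, beside 7.55%, 30.3% and 16.2% of all genes. The last of these called 6 genes, 1 of them among the 35. Without control tumour 1, centring on the 75th percentile called 13 genes and 2 of the 35, and eBayes with trend and robust options 7 genes and 1 of the 35. In these 3 settings every called member was among the 3 genes chosen from this contrast, which are given no test. Leaving out control tumours 1 and 3 called 356 genes and 3 of the 35, Sox17 and 2 of the chosen genes, against control tumour 2 alone, whose spread is assumed to be that of the Bmp4 tumours. At an unadjusted p under 0.05, 1000 genes and 3 of the 35 passed with 6 arrays.

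Array weights gave the largest counts. With limma's default REML estimate, which did not converge, 11307 genes and 25 of the 35 were called. A gene-by-gene estimate was then chosen, after those calls had been seen, and it called 1397 genes and 7 of the 35, which were Mmrn2, Sox17, Nos3, Plvap and the 3 chosen genes, with a smallest adjusted p of 0.0287 among the 32 genes not chosen from the contrast. Neither count is used above. With tumour number as a replicate block, 0 genes and 0 of the 35 were called, the median stayed at -0.11, and 11 of the 35 were lower in every same-numbered pair, beside 24.5% of all genes. Of 973 gene differences recomputed under these settings, 907 moved by less than 1 SD between replicates and 66 by more. That SD includes control tumour 1. Cd93, which went from 1.41 to -0.14 without that array, therefore counts as moved by less than 1 SD. Some settings, such as the eBayes options and the signal filters, cannot change a difference. The count of 907 is therefore no measure of stability. The settings that combine the omission of control tumour 1 with another change, apart from quantile normalization, were chosen after seeing the data. The cause of these shifts was not tested.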

Other observations

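Some of the 42 other endothelial genes had values that stood out in either direction. Those named here were chosen after their values were seen and form no list that was tested. Sele, the E-selectin of activated endothelium, was at 5.68, 4.19 and 4.39 in control tumours and at 5.83, 4.64 and 5.43 in Bmp4 tumours, a difference of 1.01 without control tumour 1. Klf2, a factor induced by laminar flow, was at 7.83, 9.92 and 10.21 in control tumours and at 10.90, 10.79 and 10.49 in Bmp4 tumours. Aqp1, a water channel of capillaries, was at 5.43, 8.94 and 9.03 and then at 9.73, 9.34 and 9.84. In Klf2 and Aqp1 every Bmp4 tumour was above every control tumour. The integrin ligands Vcam1 and Icam1 overlapped between the groups, at -0.20 and 0.04 without control tumour 1. Heg1, which anchors the CCM complex at endothelial junctions, was at 6.75, 7.54 and 7.65 in control tumours and at 5.92, 7.28 and 6.18 in Bmp4 tumours, and differed by -1.14 without control tumour 1. Procr, the receptor of activated protein C, differed by -0.85 and Bcl6b, an endothelial repressor, by -0.63 in that setting, and their means with 6 arrays differed by 0.24 and -0.23. None of these genes passed limma's adjusted p under 0.05 in either setting.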
